A study of Homo sapiens with 40 samples.

Results

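DHRS3, with 8 further genes of the retinoid pathway, was followed across 10 groups of A2058 cells, an established human melanoma line. The genes were the receptors RARA, RARB, RARG, RXRA and RXRB, the binding protein CRABP2, and the enzymes ALDH1A3 and RDH11. They were read from every array probe set (a set of short oligonucleotides against 1 transcript) annotated to a single one of these 9 symbols, which gave 26 of 54675 probe sets and 9 of 19775 named genes. DHRS3 was chosen because its signal was lowest after GDC0941, so all of its values are given as a description with no test. The other 8 genes were chosen by function, with earlier results of these data known.

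Cells received a single dose of a PI3K inhibitor or of DMSO, the solvent control, and RNA was taken after 24 hours. The inhibitors were BKM120 (buparlisib) and GDC0941 (pictilisib, also spelled GCD0941 in the labels), which act on class I PI3K, and BEZ235 (dactolisib), which acts on PI3K and mTOR. The labels name each dose by an inhibitory level: IC30, IC50 or IC90 (max) in the BKM120 groups, and IC50, IC90 or max in those of both other compounds. Molar doses, and the response behind these levels, were not used here. There were 4 arrays in every group, labelled as biological replicates of this 1 cell line, so p-values measure the spread between these cultures only. All 9 treatments were compared with the same 4 DMSO arrays.

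Retinoid signalling starts with retinol. Retinol dehydrogenases such as RDH11 and reductases such as DHRS3 interconvert retinol and retinaldehyde, with DHRS3 running the step back to retinol, and ALDH1A enzymes such as ALDH1A3 oxidise retinaldehyde irreversibly to retinoic acid. CRABP2 carries retinoic acid to the nucleus, where heterodimers of a retinoic acid receptor (RARA, RARB or RARG) and a retinoid X receptor (RXRA or RXRB) bind paired half-sites in DNA and change transcription. DHRS3 and RARB are themselves known retinoic acid target genes.

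The array values were scaled intensities, analysed as log2(intensity + 16). On this scale differences of dim probe sets are understated. The cells carried melanocyte transcripts: all 7 named melanocyte markers, MITF, SOX10, PMEL, TYR, TYRP1, MLANA and S100B, were above the filter on dim probe sets. Of 13 markers of keratinocytes, fibroblasts, endothelial cells and leukocytes, 5 were above it, and the leukocyte markers PTPRC and CD3E were not. The summed intensity of the 13 was 186.4 to 212.7 in DMSO, 120.1 to 128.8 at BEZ235 max, 142.5 to 161.0 at BEZ235 IC90 and 178.5 to 289.4 in the other treatments. The 7 melanocyte markers summed to 6805.2 to 7230.1 in DMSO, 9524.9 to 10680.3 at BEZ235 IC50 and 8785.2 to 9655.6 at GDC0941 max. At BEZ235 max their sum, 7162.2 to 7603.6, overlapped DMSO. The part of these markers in the results was not tested. All samples were cultures of 1 line, and in bulk RNA fewer expressing cells and less RNA per cell cannot be told apart. One array, BEZ235 IC50 replicate 3, stood apart. Its ratio of 3' to 5' ACTB signal was 27.2 against 1.58 to 2.33 on the other arrays, and its median correlation with its group was 0.956 against 0.992 to 0.995. Differences between that group and DMSO are also given without it.

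DHRS3 lies on the minus strand of chromosome 1 (GRCh38.p14, positions 12567910 to 12618210) and RARB on the plus strand of chromosome 3 (24829321 to 25597932). RefSeq promoter windows of GRCh38.p14 were matched for all 9 genes, 18 windows in all, each cut to the 250 bases before a transcript start. The 3 windows of DHRS3 are shown because DHRS3 had the widest range across the treatments, and a RARB window because its letters match the paired half-sites to which the receptors are known to bind. Capitals mark every motif found by text search on both strands, printed 5′ to 3′ on the gene's strand.

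DHRS3, chr1:12618211-12618460, minus strand: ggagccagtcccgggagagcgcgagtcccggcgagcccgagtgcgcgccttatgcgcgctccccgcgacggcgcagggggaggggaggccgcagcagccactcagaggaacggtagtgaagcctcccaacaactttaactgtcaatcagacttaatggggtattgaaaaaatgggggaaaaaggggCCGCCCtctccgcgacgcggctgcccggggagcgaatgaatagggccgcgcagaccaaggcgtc

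DHRS3, chr1:12616790-12617039, minus strand: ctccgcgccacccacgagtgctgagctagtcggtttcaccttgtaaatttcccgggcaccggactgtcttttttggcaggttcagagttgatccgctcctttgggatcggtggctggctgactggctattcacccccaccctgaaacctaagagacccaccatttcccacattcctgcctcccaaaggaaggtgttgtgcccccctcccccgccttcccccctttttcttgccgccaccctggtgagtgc

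DHRS3, chr1:12596614-12596863, minus strand: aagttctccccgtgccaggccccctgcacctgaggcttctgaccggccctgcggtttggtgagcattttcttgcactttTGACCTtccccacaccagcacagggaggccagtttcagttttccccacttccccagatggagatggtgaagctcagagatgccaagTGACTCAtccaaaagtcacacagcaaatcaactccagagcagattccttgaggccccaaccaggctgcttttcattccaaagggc

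RARB, chr3:25428013-25428262, plus strand: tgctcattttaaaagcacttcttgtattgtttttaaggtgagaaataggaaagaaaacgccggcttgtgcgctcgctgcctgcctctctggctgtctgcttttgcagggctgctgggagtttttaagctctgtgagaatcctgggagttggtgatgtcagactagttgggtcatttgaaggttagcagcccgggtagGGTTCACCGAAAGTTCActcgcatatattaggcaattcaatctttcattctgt

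The motifs searched included the half-site AGGTCA, and 2 half-sites in the same direction with 5 bases (DR5) or 2 bases (DR2) between them. Each half-site of a pair could be AGGTCA. It could also read AGTTCA. The letters GGGTCA were allowed, and so were the letters GGTTCA. A pair of GTTCA with 6 bases between was also searched, as were the forkhead letters GTAAACA, the E-box CACGTG, the AP-1 site TGACTCA and the GC box GGGCGG. A single half-site match can also be part of a DR5 or DR2. The RARB window held a DR5 from 53 to 37 bases before the start, a match found in 26 of 34943 windows (0.0744%), and within it the pair of GTTCA, found in 0.0487%. No DHRS3 window held a DR5 or a DR2, the latter found in 0.0286% of windows. The first DHRS3 window held a GC box 64 to 59 bases before the start, as 42.5% of windows hold one. The last held AGGTCA 171 to 166 bases and TGACTCA 85 to 79 bases before its start, which 12.1% and 4.22% of windows hold. The middle window held none of them. GTAAACA and CACGTG, found in 2.98% and 6.32% of windows, were in none of the 4 printed windows. These are matches of letters, and the array has 1 probe set for DHRS3, which does not tell its transcript starts apart.

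DHRS3 was near its DMSO level or above it after BKM120 and was lower after the higher levels of BEZ235 and GDC0941. Its intensity in DMSO was 800.5, 775.2, 779.6 and 844.8. At GDC0941 max it was 59.8, 80.0, 63.8 and 63.4, which was 8.34% of the DMSO mean. At GDC0941 IC90 it was 169.8, 131.1, 83.1 and 131.5, or 16.1% of the DMSO mean, and at IC50 it was 482.6, 544.5, 502.3 and 498.0, or 63.4%. Each of these 12 arrays was below every DMSO array, and the 3 levels of GDC0941 did not overlap one another. On the log2 scale the differences from DMSO were -0.64 at IC50, -2.53 at IC90 and -3.31 at max (SE 0.13 each, n = 4 per group). No other gene among the 12869 tested had a lower log2 change at GDC0941 IC90 or max, and 73 had one at IC50.

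BEZ235 gave an intermediate picture. DHRS3 intensities were 411.9, 440.9, 400.7 and 459.6 at IC90 and 204.9, 258.4, 221.1 and 251.5 at max, 53.5% and 29.2% of the DMSO mean. Both levels lay wholly below DMSO, with log2 differences of -0.88 and -1.71 (SE 0.13). At BEZ235 IC50 the arrays read 800.2, 846.3, 464.2 and 778.8. The value of 464.2 is the array that stood apart. With it the log2 difference was -0.18, and without it 0.01, with a mean intensity of 808 ± 34.5 (SD, n = 3). Of the 12869 genes, 256 were lower than DHRS3 at BEZ235 IC90 and 20 at max.

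BKM120 left DHRS3 at or above its control level. Intensities were 1012.4, 1052.8, 1049.1 and 841.3 at IC30, 944.0, 989.3, 978.9 and 1004.6 at IC50, and 771.1, 832.2, 823.4 and 830.3 at IC90 (max). All 4 IC50 arrays were above DMSO, at 122% of its mean. The IC30 group overlapped DMSO through replicate 4 alone, and the IC90 (max) group also overlapped it. The log2 differences from DMSO were 0.30, 0.29 and 0.03 (SE 0.13 each).

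**Figure D1:**
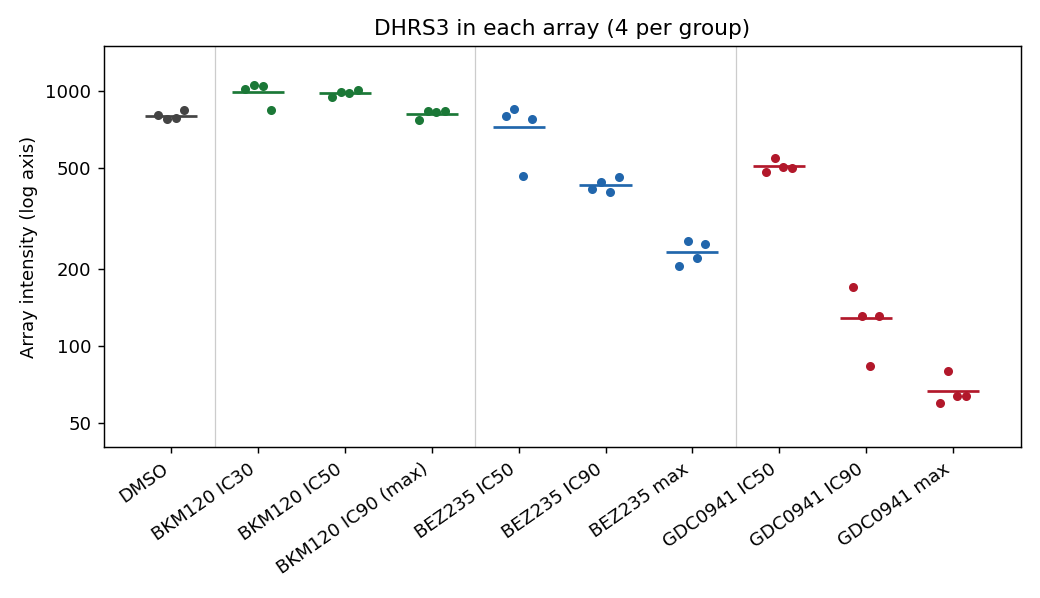
DHRS3 intensity (log axis) in each of the 40 arrays; points are arrays and bars are group means of 4 arrays. GDC0941 max sits between 59.8 and 80.0 against 775.2 to 844.8 in DMSO, and 1 BEZ235 IC50 array, at 464.2, lies below the other 3 of its group.

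By mean intensity the groups ran from BKM120 IC30 (989 ± 100, SD, n = 4 here and in the values that follow) and BKM120 IC50 (979 ± 25.7) through BKM120 IC90 (max) (814 ± 29.0), DMSO (800.0 ± 31.8), BEZ235 IC50 (722 ± 174), GDC0941 IC50 (507 ± 26.5), BEZ235 IC90 (428 ± 26.9), BEZ235 max (234 ± 25.3) and GDC0941 IC90 (129 ± 35.5) to GDC0941 max (66.8 ± 9.01). Among neighbours in this order, the 2 lower levels of BKM120 overlapped, as did BKM120 IC90 (max) with DMSO and DMSO with BEZ235 IC50. BEZ235 IC50 overlapped GDC0941 IC50 only through the array that stood apart. All other neighbours were separated, the closest pair being GDC0941 IC90, at 83.1 or more, and GDC0941 max, at 80.0 or less. At matched names of level, DHRS3 was higher by 1.65 on the log2 scale with BEZ235 than with GDC0941 at IC90 and by 1.60 at max, with no overlap. It was higher with BKM120 IC90 (max) than with BEZ235 IC90 by 0.90 and than with GDC0941 IC90 by 2.55, also with no overlap (SE 0.13 each). The change from the lowest to the highest level was -0.27 for BKM120, -1.53 for BEZ235 (-1.73 without the BEZ235 IC50 array that stood apart) and -2.66 for GDC0941.

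RDH11, a retinol dehydrogenase that also reduces retinaldehyde, is on chromosome 14 (67676800 to 67695764). It fell with BEZ235 and, less, at the highest levels of both other compounds. Its main probe set read 898.9, 957.1, 850.4 and 919.3 in DMSO, 585.3, 554.4, 614.1 and 551.7 at BEZ235 IC90, and 599.5, 563.5, 590.2 and 554.8 at BEZ235 max. The BEZ235 arrays at these levels were all below every DMSO array, at 63.6% and 63.7% of its mean, and the fall was 0.64 on the log2 scale at both (SE 0.09; limma, Benjamini-Hochberg adjusted p = 2.1e-07 and 1.8e-07). At GDC0941 max the arrays read 809.9, 754.7, 696.2 and 623.3, again without overlap (log2 -0.33, adjusted p = 0.0034). The second RDH11 probe set changed the same way, by -0.70, -0.75 and -0.35 in these comparisons. At GDC0941 IC50 and IC90 neither probe set passed the test.

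At lower BEZ235 and with BKM120 the RDH11 result was less firm. It was -0.26 at BKM120 IC90 (max) (adjusted p = 0.024) and -0.25 at BEZ235 IC50 (adjusted p = 0.026), with overlap in both. The first call was lost without DMSO replicate 2 or 4 or without BKM120 IC90 (max) replicate 1, 2 or 4 (adjusted p = 0.052 to 0.088). The second was lost without DMSO replicate 2 or 4 or without BEZ235 IC50 replicate 2 or 4, reaching -0.16 with adjusted p = 0.17 in the absence of BEZ235 IC50 replicate 2. Without the array that stood apart it was -0.29 (adjusted p = 0.011). The second probe set did not overlap DMSO in either comparison (-0.26, adjusted p = 0.00018, and -0.55, adjusted p = 3.8e-10), and at BEZ235 IC50 it was also -0.55 without that array. The other RDH11 probe sets, 2 in number, were too dim to test.

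ALDH1A3, the aldehyde dehydrogenase that makes retinoic acid, is on chromosome 15 (100879831 to 100916626). It moved in different directions at different levels. Its main probe set read 1399.4, 1634.6, 1714.9 and 1430.1 in DMSO and 1918.1, 1959.2, 1713.7 and 1795.0 at BKM120 IC90 (max), where it rose by 0.26 (SE 0.06, adjusted p = 0.0017), with overlap at 1 array. At GDC0941 IC50 it read 1256.0, 1250.1, 1343.4 and 1277.2, all below DMSO (log2 -0.26, adjusted p = 0.0055). At BKM120 IC30 the difference was -0.23 (adjusted p = 0.014), a call lost without DMSO replicate 2 or 3 or BKM120 IC30 replicate 2 (adjusted p = 0.058 to 0.085). At BEZ235 max it was 0.20 (adjusted p = 0.0086), lost without DMSO replicate 1 (0.16, adjusted p = 0.056). A second, dim probe set was higher by 0.47 at BKM120 IC90 (max), 0.50 at BEZ235 IC90 and 0.59 at BEZ235 max, each past the test. From the lowest to the highest level of each compound ALDH1A3 rose, by 0.48 for BKM120, 0.19 for BEZ235 and 0.26 for GDC0941 (adjusted p = 1.1e-07, 0.02 and 0.0022). The BEZ235 value lost its call without BEZ235 IC50 replicate 1 or BEZ235 max replicate 2 or 4 (adjusted p = 0.057 to 0.090).

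CRABP2, on chromosome 1 (156699606 to 156705784), passed the test against DMSO in none of the 9 treatments by its single probe set. DMSO arrays ran from 51.7 to 83.0 with a median of 68.8, GDC0941 max from 56.4 to 83.3 and BEZ235 max from 47.7 to 65.4. The 95% interval of the log2 difference was -0.34 to 0.32 at GDC0941 max and -0.59 to 0.07 at BEZ235 max. At BEZ235 IC50 CRABP2 read 53.3, 86.3, 125.7 and 97.0, the highest being the array that stood apart. The difference from DMSO was 0.31 with all arrays and 0.16 without that one (adjusted p = 0.14 and 0.50). It was 0.50 without replicate 1, the lowest, and then passed (adjusted p = 0.012), with the array that stood apart still included. It was lower at BEZ235 max than at BEZ235 IC50 by 0.57 on the log2 scale (adjusted p = 0.008), a call lost when those 8 arrays alone were fitted (adjusted p = 0.13). Without the array that stood apart this difference was -0.41 (adjusted p = 0.0498).

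RXRB, on chromosome 6 (33193588 to 33200853), rose at the higher levels of BEZ235 by both of its tested probe sets. Its main probe set read 61.4, 107.3, 71.0 and 69.7 in DMSO, 119.8, 125.2, 119.9 and 160.1 at BEZ235 IC90, and 158.4, 139.4, 128.6 and 118.7 at BEZ235 max. Both BEZ235 groups were above all DMSO arrays, by 0.67 and 0.72 (SE 0.17, adjusted p = 0.0017 and 0.00074). The second RXRB probe set rose in the same comparisons, by 0.38 and 0.35 (adjusted p = 0.0059 and 0.01), and in no other against DMSO. RXRB by its main probe set also passed at BKM120 IC50 (0.61), BKM120 IC90 (max) (0.52) and GDC0941 max (0.56), with adjusted p of 0.016, 0.019 and 0.011. Each of these 3 calls was lost without DMSO replicate 1, the lowest DMSO array (adjusted p = 0.070, 0.077 and 0.051). The BKM120 calls were also lost without BKM120 IC50 replicate 2 (0.056) and without DMSO replicate 4 (0.052), in that order. At BEZ235 IC50 the difference of 0.66 (adjusted p = 0.0029) became 0.42 without the array that stood apart (adjusted p = 0.029).

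RXRA, on chromosome 9 (134326455 to 134440585), rose modestly with BEZ235 and GDC0941. Arrays read 232.4, 225.7, 261.5 and 299.4 in DMSO, 372.5, 329.2, 332.1 and 325.4 at BEZ235 max, and 287.0, 341.0, 330.3 and 341.2 at GDC0941 max. The BEZ235 max arrays were all above DMSO (0.40, SE 0.09, adjusted p = 0.00022) and GDC0941 max overlapped DMSO at 1 array (0.34, adjusted p = 0.0023). The differences at BEZ235 IC50 (0.28, adjusted p = 0.011) and IC90 (0.27, adjusted p = 0.0095) lost their calls without DMSO replicate 2 (adjusted p = 0.059 and 0.052), and the first was 0.25 without the array that stood apart (adjusted p = 0.031). That at GDC0941 IC90 (0.25, adjusted p = 0.04) was lost without any 1 of its own 4 arrays or without DMSO replicate 1, 2 or 3 (adjusted p up to 0.16). The second RXRA probe set passed at BEZ235 max alone (0.33, adjusted p = 0.038). With BKM120 neither probe set passed against DMSO.

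Among the retinoic acid receptors, RARA, on chromosome 17 (40309180 to 40357643), was read by 4 tested probe sets that differed. The brightest, used here since the one designed for RARA alone was too dim to test, read 117.5, 109.7, 96.2 and 114.6 in DMSO and 87.9, 73.3, 69.3 and 71.3 at GDC0941 max, with no overlap. It passed at BKM120 IC90 (max) (-0.48, adjusted p = 0.017), GDC0941 max (-0.46, 0.02), BEZ235 max (-0.37, 0.046) and GDC0941 IC90 (-0.43, 0.048). None of these 4 calls held when single arrays were left out, with adjusted p up to 0.065, 0.053, 0.15 and 0.11 in the same order. For the first these were BKM120 IC90 (max) replicates 2 and 3, and for the second DMSO replicate 1 and GDC0941 max replicate 3. For BEZ235 max they were DMSO replicates 1, 2 and 4 and BEZ235 max replicates 2, 3 and 4, and for GDC0941 IC90 DMSO replicates 1, 2 and 4 and GDC0941 IC90 replicates 2, 3 and 4. Without BEZ235 IC50 replicate 3, which read 184.3, RARA also passed at GDC0941 IC50 (-0.44, adjusted p = 0.0076) and BEZ235 IC90 (-0.34, adjusted p = 0.014). The other 3 probe sets gave -0.22 to 0.09 at BKM120 IC90 (max) and -0.18 to 0.09 at GDC0941 max, and passed in neither. The dimmest of these 3 was below all its DMSO arrays (24.5 to 27.8) at GDC0941 IC50 (12.3 to 18.8) and BEZ235 IC50 (12.9 to 21.5). It was also below them at BKM120 IC30 (17.4 to 24.3) and GDC0941 IC90 (15.8 to 24.2). The remaining probe sets overlapped DMSO in these groups.

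RARG, on chromosome 12 (53210569 to 53232209), did not pass against DMSO in any treatment by its main probe set, whose arrays read 23.4, 26.3, 17.4 and 25.2 in DMSO and 19, 12.6, 18.8 and 14.4 at GDC0941 IC90 (-0.28, adjusted p = 0.095). Without DMSO replicate 3 that difference was -0.35 and passed (adjusted p = 0.045). A second RARG probe set passed at GDC0941 IC90 (-0.36, adjusted p = 0.033), and the remaining one at BEZ235 max (-0.31, adjusted p = 0.032). At BEZ235 IC50 the second probe set passed with all arrays (-0.35, adjusted p = 0.023), but the array that stood apart read 6.6 and the others 16 to 23.3, and without it the difference was -0.18 (adjusted p = 0.22). RARB was dim on 1 tested probe set, between 2.7 and 17.8 over all 40 arrays, and its 4 other probe sets were too dim to test. It passed in no comparison with DMSO, and the 95% interval at GDC0941 max was -0.07 to 0.44.

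**Figure D2:**
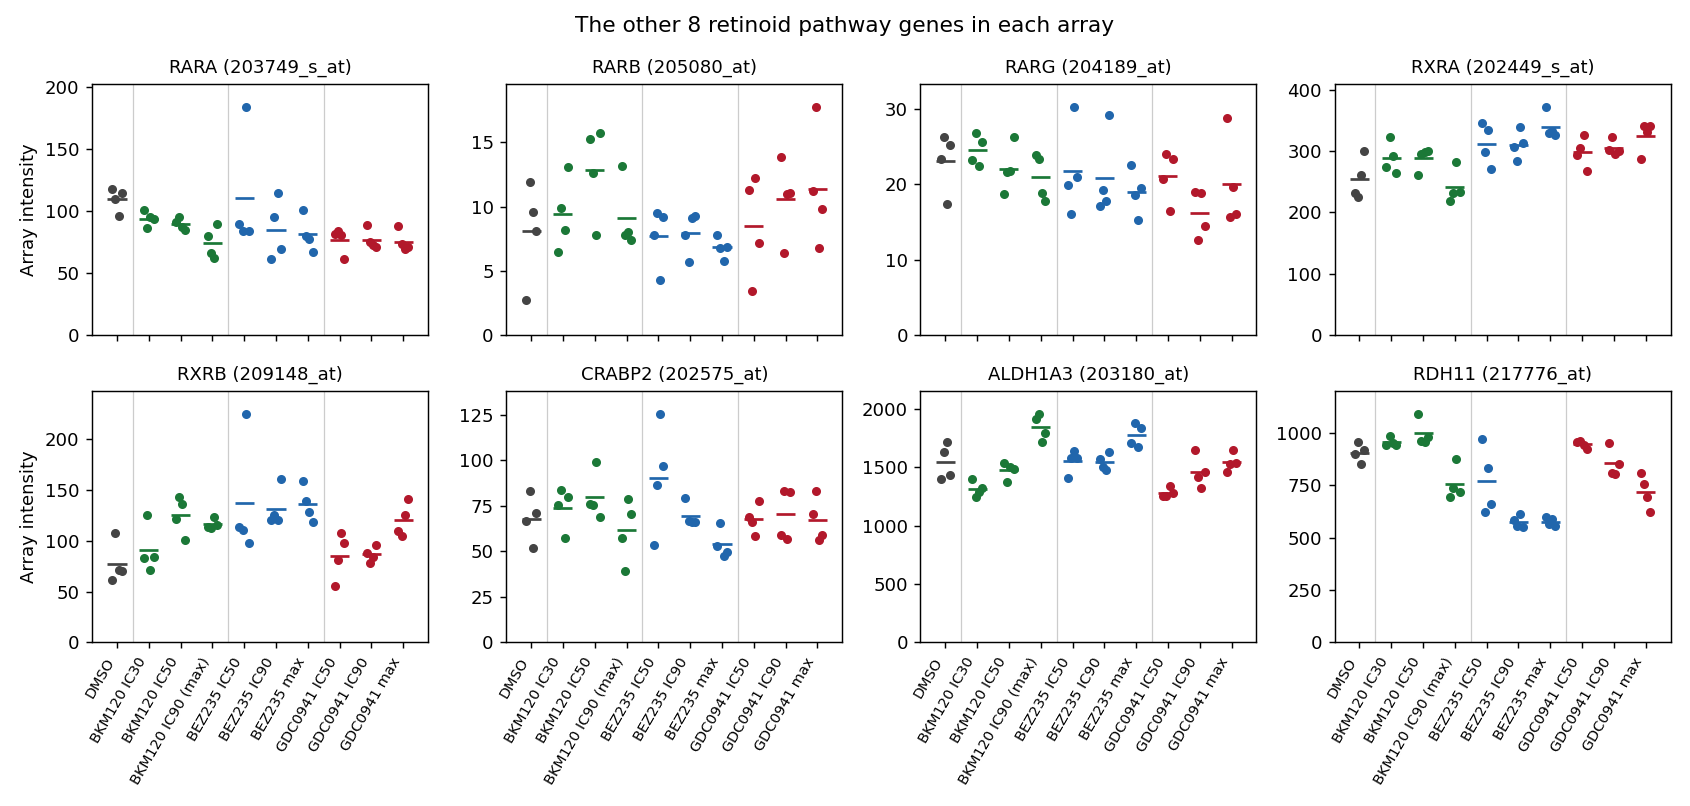
Intensity (linear axis from 0) of 1 probe set for each of the 8 genes other than DHRS3 in all 40 arrays; points are arrays and bars are means of 4. RDH11 is lowest at BEZ235 IC90 and max, RXRB is higher at those levels, and a BEZ235 IC50 array is high for RARA and RXRB.

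Counting each gene by 1 probe set, 7 of the 8 genes other than DHRS3 could be tested, RARA being left out. At BKM120 IC30, 1 of 7 passed, where 16.1% of all genes did. It was lower, as were 6.14% of all genes, and 9.97% were higher. At BKM120 IC50 1 passed and was higher (15.3% of all genes, 9.79% higher and 5.52% lower). At BKM120 IC90 (max) 3 passed, 2 higher and 1 lower (31.4%, 16.1% and 15.3%, in the same order of all, higher and lower in the sentences that follow). For BEZ235, 3 passed at IC50, 2 higher and 1 lower (38.6%, 21.3% and 17.3%), and 3 at IC90, again 2 higher and 1 lower (49%, 27.6% and 21.4%). At BEZ235 max 4 passed, 3 higher and 1 lower (51.9%, 29.3% and 22.6%). For GDC0941 1 was lower at IC50 (12.1%, 7.62% and 4.48%), 1 higher at IC90 (20.7%, 13% and 7.76%), and 2 higher and 1 lower at max (38.1%, 22.7% and 15.4%). These shares of 7 genes were near the share of all genes, and the genes' median log2 differences lay between -0.07 and 0.17 against 0.00 to 0.04 for all genes. At BKM120 IC90 (max) the count was 1 without DMSO replicate 4, and the share of all genes was not counted in that fit.

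**Figure D3:**
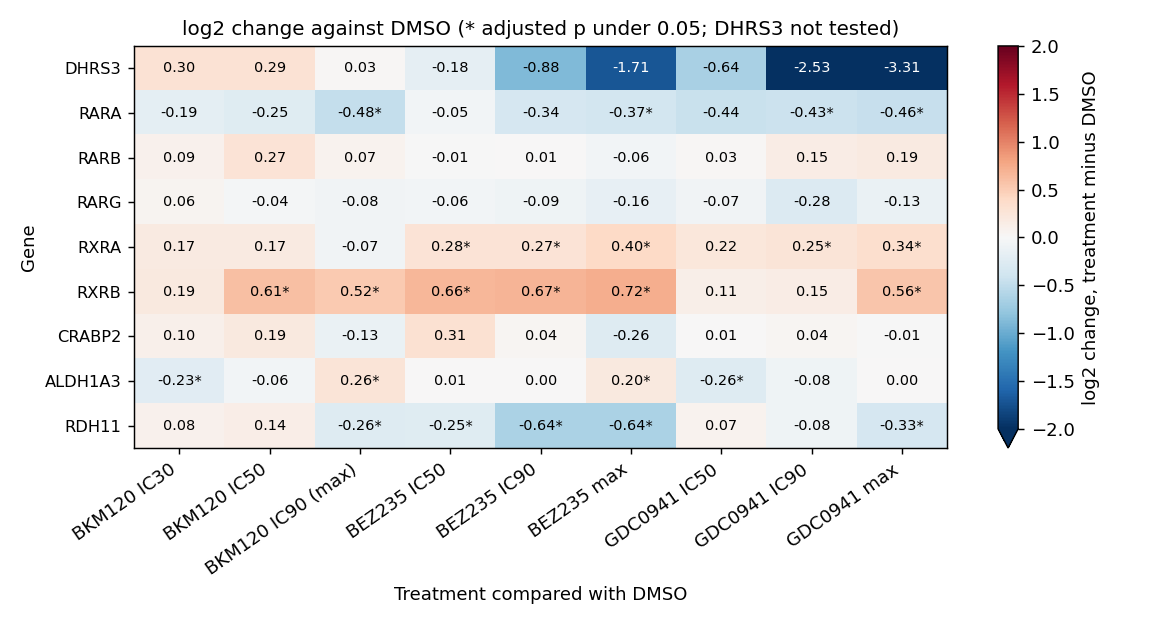
log2 difference from DMSO, in log2(intensity + 16), of the 9 genes (rows, 1 probe set each) in the 9 treatments (columns); asterisks mark limma adjusted p under 0.05 and DHRS3 was not tested. DHRS3 reaches -3.31 at GDC0941 max, and no other gene goes beyond 0.72 in either direction.

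Differences between compounds at the same name of level were tested for these 7 genes in 7 comparisons. At IC50, BKM120 and BEZ235 differed for 1 gene (25.6% of all genes differed), BKM120 and GDC0941 for none (0.295%, with 0.21% higher and 0.0855% lower in BKM120), and BEZ235 and GDC0941 for 3 (27.9%), or 2 without the array that stood apart (27.7%). At IC90, BKM120 and BEZ235 differed for 3 (40.8%), BKM120 and GDC0941 for 2 (28.2%), and BEZ235 and GDC0941 for 2 (37.3%). At max, BEZ235 and GDC0941 differed for 2 (31.4%). RDH11 was lower with BEZ235 than with GDC0941 at IC90, by 0.55 on the log2 scale (adjusted p = 4.9e-06), and lower at max by 0.31 (adjusted p = 0.0075), without overlap. RXRA was lower at BKM120 IC90 (max) than at BEZ235 IC90 (-0.35, adjusted p = 0.0014) and than at GDC0941 IC90 (-0.32, adjusted p = 0.004), also without overlap. ALDH1A3 was higher at BKM120 IC90 (max) than at the IC90 of BEZ235 (0.26, adjusted p = 0.0014) and of GDC0941 (0.34, adjusted p = 6.9e-05). For RXRA between BEZ235 max and GDC0941 max the 95% interval was -0.11 to 0.24, and for RXRB -0.19 to 0.52. Between the highest and lowest level of a compound, 3 of 7 genes differed for BKM120 (31.1% of all genes), 3 for BEZ235 (32.8%) and 2 for GDC0941 (24.8%). Fitted without the array that stood apart, RXRB also passed between GDC0941 max and IC50 (0.45, adjusted p = 0.013). It then passed between BKM120 IC90 (max) and GDC0941 IC90 too (0.37, adjusted p = 0.037).

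A list of 70 other retinoid genes was read in the same way; 57 had a probe set of their own and 35 were tested. Against DMSO, 16 of the 35 passed at BKM120 IC90 (max), 8 in each direction (45.7%, beside 31.4% of all genes). At BEZ235 max 20 passed, 8 higher and 12 lower (57.1%, beside 51.9%), and at GDC0941 max 19, 8 higher and 11 lower (54.3%, beside 38.1%). The median log2 difference of the 35 was -0.10, -0.08 and 0.07 in that order. Without DMSO replicate 2 the BKM120 count was 10, and the share of all genes was not counted in that fit. At lower levels of BKM120, 16 passed at IC30, 11 higher and 5 lower (45.7%, beside 16.1% of all genes), and 12 at IC50, 8 higher and 4 lower (34.3%, beside 15.3%). For BEZ235, 15 passed at IC50, 7 higher and 8 lower (42.9%, beside 38.6%), or 13 without the array that stood apart (37.1%, beside 37.5%). At BEZ235 IC90 15 passed, 5 higher and 10 lower (42.9%, beside 49%). For GDC0941, 10 passed at IC50, 6 higher and 4 lower (28.6%, beside 12.1%), and 14 at IC90, 6 higher and 8 lower (40%, beside 20.7%). Retinoic acid clearance could not be followed, since CYP26A1 and CYP26B1 were too dim to test.

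Among the 6 enzymes that interconvert retinol and retinaldehyde, 3 fell at GDC0941 max and none rose, where 15.4% of all genes fell and 22.7% rose. At BKM120 IC90 (max) and at BEZ235 max 2 fell and 1 rose, beside 15.3% and 16.1% of all genes in the former and 22.6% and 29.3% in the latter. AKR1B10, a reductase of retinaldehyde, read 32.1, 34.8, 41.7 and 44.1 in DMSO and 16, 10.0, 11 and 11.7 at GDC0941 max. It was below all DMSO arrays in each of the 9 treatments, by -0.57 (GDC0941 IC50, adjusted p = 5.5e-05) to -1.01 (BEZ235 max, adjusted p = 2.6e-11). AKR1C3, an aldo-keto reductase with retinaldehyde among its substrates, fell by 1.07 at BEZ235 max (adjusted p = 2.9e-09), 0.71 at BKM120 IC90 (max) and 0.63 at GDC0941 max. Both belong to families of near-identical genes whose transcripts may share these probe sets. RDH10, the main dehydrogenase of retinol in many tissues, fell by 0.60 at GDC0941 max (adjusted p = 0.0011) and differed by -0.10 at BEZ235 max (adjusted p = 0.59). Its arrays were also below all of DMSO (1092.1 to 1278.8) at BKM120 IC30 (793.8 to 899.6) and IC50 (788.3 to 946.7). The same held at GDC0941 IC50 (845.8 to 860.5) and IC90 (809 to 907.2), and at BEZ235 IC90 (889.3 to 1087.2). At BKM120 IC30 and IC50, GDC0941 IC50 and BEZ235 IC90 the RDH10 difference did not pass. All groups share an estimate of the spread, and the BEZ235 IC50 array that stood apart read 435 for RDH10. The others of its group read 966.9 to 1129.9. What that array did to these calls was not tested. At BKM120 IC90 (max) RDH10 overlapped DMSO. RDH5 rose by 0.51 at BKM120 IC90 (max) (adjusted p = 0.0003), but on a dim probe set. It read 6.8 to 10.1 in DMSO and 15.7 to 21.6 at BKM120 IC90 (max). ALDH1A1, an enzyme of the ALDH1A3 family, fell by 0.52 at GDC0941 max (adjusted p = 0.0028).

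Of the 9 retinoic acid responsive genes, 5 passed at GDC0941 max, 2 higher and 3 lower (55.6%, beside 38.1% of all genes), 5 at BEZ235 max, 3 higher and 2 lower (55.6%, beside 51.9%), and 4 at BKM120 IC90 (max), 2 in each direction (44.4%, beside 31.4%). TGM2, a transglutaminase induced by retinoic acid in many cells, fell by 1.07 at GDC0941 max (adjusted p = 4.5e-11) and differed by -0.08 at BEZ235 max (adjusted p = 0.54) and -0.16 at BKM120 IC90 (max) (adjusted p = 0.23). It fell at every lower level of the 3 compounds, by 0.87 and 0.83 at IC30 and IC50 of BKM120, by 0.48 and 0.43 at IC50 and IC90 of BEZ235, and by 0.75 and 0.83 at IC50 and IC90 of GDC0941, with all arrays below DMSO. The BEZ235 IC50 value was -0.57 without the array that stood apart. The difference between BEZ235 max and GDC0941 max was itself 0.99 (adjusted p = 3.9e-10). BHLHE40, a transcriptional repressor, fell by 0.82 at BKM120 IC90 (max), 0.63 at BEZ235 max and 0.37 at GDC0941 max. At BKM120 IC30 its arrays, at 508.1 to 530.3, were all above those of DMSO, at 427.4 to 464.3, and the difference of 0.22 did not pass (adjusted p = 0.054). RARRES2, which encodes chemerin, rose by 0.60 at GDC0941 max and 0.37 at BEZ235 max. It was dim, at 12.3 to 18.3 in DMSO and 27.9 to 34.8 at GDC0941 max. BKM120 IC30 (25.5 to 37.2) was also above all DMSO arrays, as were BEZ235 IC50 and GDC0941 IC50 and IC90. BKM120 IC50 (17 to 35.3), BKM120 IC90 (max) and BEZ235 IC90 overlapped DMSO. RARRES3 rose by 0.48 at BKM120 IC90 (max) and 0.37 at BEZ235 max. Its arrays were also above all of DMSO (73.1 to 85) at BKM120 IC30 (87.3 to 123.4) and IC50 (102.2 to 124.9). The same held at BEZ235 IC50 and IC90 and at GDC0941 max (87.4 to 90.9), while GDC0941 IC50 and IC90 overlapped DMSO. RARRES1 rose by 0.41 at GDC0941 max, 0.34 at BEZ235 max and 0.34 at BKM120 IC90 (max). The last 2 RARRES1 values lost their calls in single leave-outs: at BEZ235 max without DMSO replicate 1 or BEZ235 max replicate 4, and at BKM120 IC90 (max) without DMSO replicate 1 or 4 or BKM120 IC90 (max) replicate 1 or 3 (adjusted p = 0.057 to 0.10). RARRES1 was dim, at 6.7 to 9.2 in DMSO and 13.7 to 18.7 at GDC0941 max.

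Among the 9 coregulators of nuclear receptors, NRIP1, a corepressor that binds RARs in the presence of ligand, fell by 0.61 at GDC0941 max (adjusted p = 1.4e-11), 0.29 at BEZ235 max and 0.22 at BKM120 IC90 (max), with no overlap with DMSO in any. KAT2B, an acetyltransferase coactivator, rose by 0.53 at GDC0941 max (adjusted p = 2.6e-06) and differed by 0.10 at BEZ235 max (adjusted p = 0.36). The rise was not particular to GDC0941. KAT2B was above all DMSO arrays (712.7 to 833.2) at BKM120 IC30 (1033 to 1202.5), BKM120 IC50 (981.1 to 1171.8) and BEZ235 IC50 (1004.4 to 1386.2). The same held at BKM120 IC90 (max) and at GDC0941 IC50 and IC90, while BEZ235 IC90 (799.4 to 1014.2) overlapped DMSO. In storage and uptake, SCARB1, a receptor that takes up carotenoids, fell by 0.72 at BEZ235 max (adjusted p = 2.3e-08), and BCO2, a carotenoid oxygenase, by 0.47. BCO2 was dim, at 17.4 to 25 in DMSO and 9.4 to 13.8 at BEZ235 max. At low levels of the other compounds SCARB1 rose without overlap, by 0.40 at GDC0941 IC50 and 0.30 at BKM120 IC50 (adjusted p = 0.0026 and 0.021). The second of these was lost without DMSO replicate 1 or 4 or BKM120 IC50 replicate 3 or 4 (adjusted p = 0.051 to 0.072). PNPLA4, a lipase with activity on retinyl esters, rose by 0.51 at BEZ235 max and 0.39 at GDC0941 max. At BKM120 IC90 (max) PNPLA4 rose by 0.28 (adjusted p = 0.018). That call was lost without DMSO replicate 2 or BKM120 IC90 (max) replicate 4 (adjusted p = 0.085 and 0.057). BKM120 IC30 (294.9 to 359.2) was also above all DMSO arrays (228.9 to 285.1), as were BEZ235 IC90 and GDC0941 IC90. BKM120 IC50 (251.9 to 321.2), BEZ235 IC50 and GDC0941 IC50 overlapped DMSO. The binding protein RLBP1 fell by 0.48 at BEZ235 max (adjusted p = 0.00025), where RBP7 rose by 0.40, and RLBP1 rose by 0.89 at BKM120 IC30 and 0.96 at GDC0941 IC50. Both were dim: RLBP1 read 12.7 to 22.2 in DMSO and 5.2 to 10.2 at BEZ235 max. RBP7 read 5 to 14.5 in DMSO and 15.3 to 20.1 at BEZ235 max. RXRG, a further RXR gene, was named after its values were seen: it differed by 0.54 at GDC0941 IC50 (adjusted p = 0.00013) and by -0.38 at BEZ235 max (adjusted p = 0.0011).

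**Figure D4:**
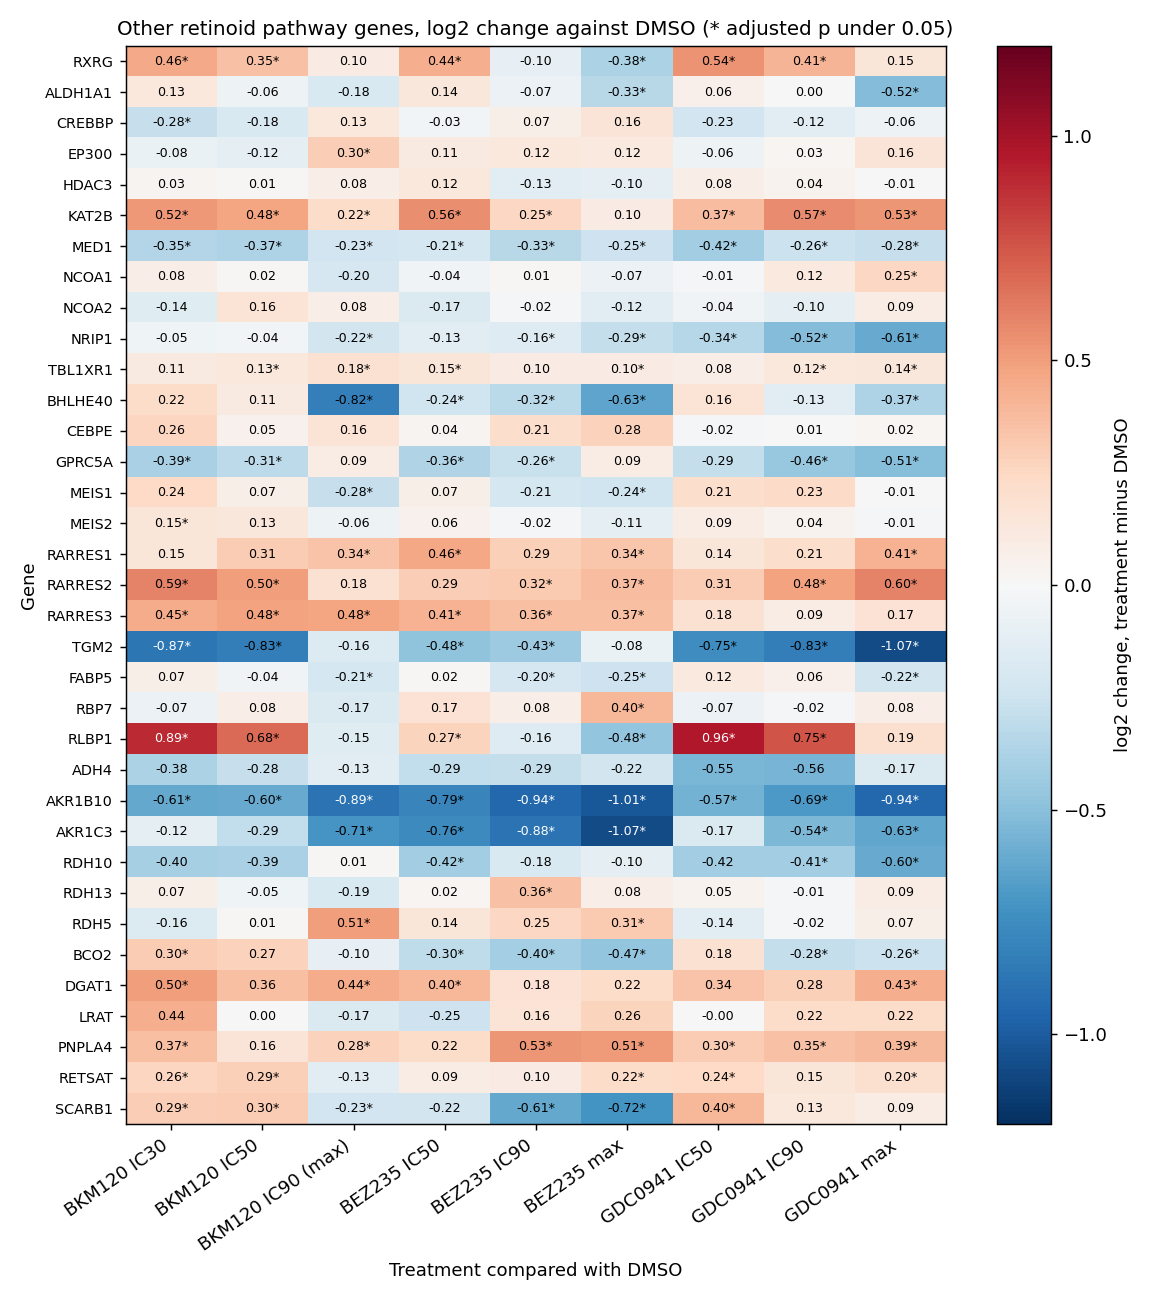
log2 difference from DMSO, in log2(intensity + 16), of the 35 tested other genes of the retinoid pathway (rows, in the order of the lists) in the 9 treatments (columns); asterisks mark limma adjusted p under 0.05. AKR1B10 is lower in all 9 treatments, and TGM2 is lowest at GDC0941 max (-1.07).

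The genes whose group means ran most like those of DHRS3 were found by Pearson's r over the 10 group means, among 1135 genes that varied enough to be ranked. These correlations are a description over 10 means and were not tested. TXK, a Tec-family kinase, had r = 0.91, HOXB2, a homeobox gene, 0.87, FBXL13 0.85, NFIA-AS2 0.83, and the serine protease inhibitors SERPINA3 and SERPINA5 0.83 and 0.82. Their differences at GDC0941 max were smaller than that of DHRS3, from -1.29 for HOXB2 and -1.16 for TXK to -0.36 for SERPINA3. Some went against DHRS3 elsewhere. HOXB2 was at -0.56, -0.47 and -0.42 at IC30, IC50 and IC90 (max) of BKM120, where DHRS3 was not lower. SERPINA3 was at 0.25 at BEZ235 IC90, where DHRS3 was at -0.88. NFIA-AS2 was dim, at 2.6 to 8 at GDC0941 max. The most opposed were GNG4 (r = -0.87), EHD2 (-0.85), LRRN4CL (-0.81) and ZNF704 (-0.81), which were higher at GDC0941 max by 1.21, 0.74, 1.16 and 1.06. LRRN4CL was dim, at 0.1 to 3 in DMSO. Among the other 8 genes of the set r with DHRS3 ran from -0.62 for RXRA to 0.78 for the main RARG probe set.

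**Figure D5:**
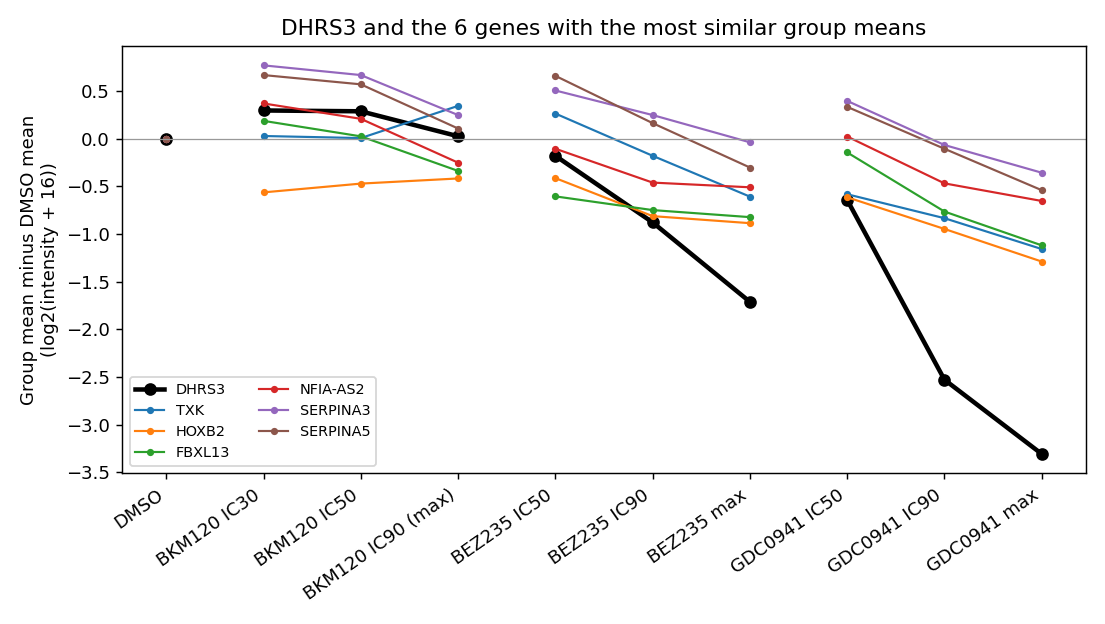
Group mean minus DMSO mean of log2(intensity + 16) for DHRS3 and the 6 genes with the highest correlation over the 10 group means; lines join the levels of 1 compound. DHRS3 reaches -3.31 at GDC0941 max, and the nearest of the 6, HOXB2, reaches -1.29.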

How the data were processed

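Per the labels, 50 ng of total RNA from A2058 cells was amplified, labelled with biotin and hybridised to 1-colour arrays of 54675 probe sets. The authors deposited MAS5 intensity values (per the submitters' processing notes; the version was not given). The mean of each array without its highest and lowest 2% was 150, so the values had been scaled array by array. The number of arrays, 4 per group, limits the precision.

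The log2 of each intensity plus 16 was analysed without normalizing again. Of the probe sets, 41097 carried 1 gene symbol, 1801 several and 11777 none. After removal of 62 controls, the 32768 probe sets above the 40th percentile of mean log2 signal were fitted with limma 3.58.1 (R 4.3.3). The model had 1 mean per group over all 40 arrays and a variance trend, and p-values were adjusted over all 32768 (Benjamini-Hochberg, threshold 0.05) within each of 19 comparisons. Shares of genes use 1 probe set per gene, the one with the highest mean log2 signal, with _x_ and _s_ designs only where no other existed, which left 12869 genes. The fit was tested on simulated data.

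The members and the pathway lists were chosen with earlier results of these data known. All member probe sets were read. Of the other pathway genes, those named are up to 6 per direction with the largest change at each compound's highest level that passed the test without overlap of arrays, and genes like DHRS3 are those with the highest and lowest correlation over group means, among genes whose group means span at least 1, placeholder symbols left out. Promoter windows come from RefSeq (GRCh38.p14). Alternatives covered the pseudocount, filter, normalization, probe set choice, arrays fitted, variance trend, replicate block and each left-out array; taking the brightest probe set whatever its design, and single arrays left out for further probe sets and lower levels, were added after the data were seen. No protein sequences were used here.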

Additional observations from a re-analysis of the deposited data

Results flagged for a closer look

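In 9 of the 90 groups of 4 arrays examined (9 genes by 10 groups) 1 array lay far from the other 3, its gap to the nearest being past Dixon's 95% critical share of the group's range. Chance gives about 1 in 20. The gap was 0.861 of the range for DHRS3 at BEZ235 IC50 replicate 3 (464.2 against 778.8 to 846.3) and 0.915 for RARA in the same array (184.3 against 83.6 to 89.7), the array with the high 3' to 5' ratios. It was 0.861 for DHRS3 and 0.886 for RARB in BKM120 IC90 (max) replicate 1 (771.1 against 823.4 to 832.2, and 13.2 against 7.4 to 8.0). RARA was low in GDC0941 IC50 replicate 4 (0.858). CRABP2 was high in BEZ235 IC90 replicate 1 (0.944), and RXRB in BEZ235 IC90 replicate 4 (0.850). RXRA was low in BKM120 IC50 replicate 1 (0.894) and high in BEZ235 max replicate 1 (0.850).

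Of 49 tests between compounds at the same name of level (7 genes in 7 comparisons), 13 passed. Of all genes, 0.295% (BKM120 against GDC0941 at IC50) to 40.8% (BKM120 against BEZ235 at IC90) passed in these 7 comparisons. The count was not tested against these shares. RDH11 differed by 0.39 (BKM120 minus BEZ235) and -0.31 (BEZ235 minus GDC0941) at IC50, by 0.38 and -0.55 in the same order at IC90, and by -0.31 (BEZ235 minus GDC0941) at max. ALDH1A3 differed by 0.27 (BEZ235 minus GDC0941) at IC50, by 0.26 (BKM120 minus BEZ235) and 0.34 (BKM120 minus GDC0941) at IC90, and by 0.20 (BEZ235 minus GDC0941) at max. RXRA differed by -0.35 (BKM120 minus BEZ235) and -0.32 (BKM120 minus GDC0941) at IC90. RXRB differed by 0.55 at IC50 and 0.52 at IC90 (BEZ235 minus GDC0941). The RXRB difference at IC50 was 0.31 (adjusted p = 0.14) without the BEZ235 IC50 array that stood apart and 0.39 (adjusted p = 0.11) without GDC0941 IC50 replicate 1. That at IC90 was lost without BEZ235 IC90 replicate 4 (0.43, adjusted p = 0.082) or GDC0941 IC90 replicate 2 (0.48, adjusted p = 0.054). The RDH11 difference between BEZ235 and GDC0941 at IC50 was lost without BEZ235 IC50 replicate 2 (-0.22, adjusted p = 0.058), and the ALDH1A3 difference at max without BEZ235 max replicate 2 or 4 or GDC0941 max replicate 1 (0.17 to 0.18).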

How the results depend on the processing

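With a pseudocount of 64 the DHRS3 difference from DMSO was -1.54 at BEZ235 max and -2.73 at GDC0941 max, and with a pseudocount of 1 it was -3.57 at GDC0941 max; dim values weigh more as the pseudocount falls. With single arrays left out it ran from -1.76 to -1.65 at BEZ235 max, -3.38 to -3.27 at GDC0941 max and 0.01 to 0.05 at BKM120 IC90 (max). The count of the 7 genes that passed ran from 3 to 4, 2 to 3 and 1 to 3 in that order, and that of the 35 other pathway genes from 16 to 22, 15 to 19 and 10 to 16. With the filter at the 60th percentile 13 of 24 pathway genes passed at BEZ235 max, since fewer were tested. The share of all genes that passed was not counted under these settings, so these counts have no such share beside them.

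Replicate numbers did not pair the arrays: the median correlation of deviations over 180 same-number pairs was -0.01, 14 pairs exceeded 0.1, and 5 of 40 arrays lay closest to their own number. With the replicate number as a block 4, 3 and 3 of the 7 genes and 19, 19 and 15 of the 35 passed at BEZ235 max, GDC0941 max and BKM120 IC90 (max). Here too the share of all genes was not counted.

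Of 188 results for named genes, 81 passed the test, and 44 of these did so under every alternative and with every array left out that was tried. The results of the other pathway genes among them were named because they had passed, so for those passing was fixed by the choice. Processing alternatives removed a call 36 times and added one 15 times, left-out arrays 92 and 17 times, and 0 called values changed sign; the cause was not tested. Dim probe sets, such as that of RARB, limit what could be seen.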
